A study of Mus musculus with 12 samples.

Results

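On the mouse circRNA array used for these blood samples, 50 probes whose names start with A_ were each printed 10 times, which makes 500 of the 15712 spots and 50 of the 14390 different probes. They were taken by that name prefix alone. No measured value entered this rule, which was set with earlier results of these data known. All 50 are regular spots, none of them carries a circRNA number, and each has a transcript accession in the column for systematic names. Through RefSeq, 44 accessions gave a gene symbol, and the other 6 (AK004226, AK053689, BC057074, ENSMUST00000062524, X89687 and XM_006525458) are called by their accession here.

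The 12 arrays held RNA of peripheral whole blood from male Balb/c mice, taken by cardiac puncture. One group of 3 arrays came from sham-operated mice (SHAM), and 3 groups of 3 came from mice after 5 min, 3 h or 24 h of middle cerebral artery occlusion (MCAO), in which a filament closes the main artery to the lateral cerebral hemisphere. SHAM mice had the same anesthesia and surgery without occlusion. The labels give an age of 8 weeks for all mice, and the methods of the study give an older range. The replicates are recorded as independent experiments, with no statement on how many animals stand behind an array, so p-values measure the spread between these arrays.

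A probe for a gene transcript on such an array reads whatever labeled RNA carries its target. RNase R degrades linear RNA from its free end and leaves closed circles intact, so most linear mRNA should be gone before labeling, while a circle that contains the same exon, or linear RNA that survived the digestion, can still bind the probe. These sources cannot be told apart here. Whole blood is a mixture of red cells, platelets, neutrophils, monocytes and lymphocytes, and fewer cells of a type cannot be told apart from less RNA per cell. Apart from Mbp, a myelin gene that marks oligodendrocytes, no gene on the marker lists used for blood and brain cell types is among the 50 genes, so the labelled tissue could not be checked with them.

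The genes cover a wide range of roles. Actb (cytoskeletal actin), Prdx2 (a peroxiredoxin of red cells), Duox1 (a dual oxidase that makes hydrogen peroxide) and Gsta4 (a glutathione transferase) form the housekeeping and redox group. Metabolism is covered by Gpi1 (glycolysis), Acaa2 and Cpt1a (fatty acid oxidation and import), Ppara (the nuclear receptor that controls it), Pex11a (peroxisome division), Gamt (creatine synthesis) and Apoe (lipoproteins). H2-Q7 (a nonclassical MHC class I molecule), Il2 (a T cell cytokine), Mzb1 (a B cell protein of the endoplasmic reticulum) and Gsdmd (the pore protein of pyroptosis) are immune genes. Rab5a (early endosomes), Tm9sf1, Cav2 (caveolae), Anxa8, Atg3 (autophagy) and Lhfp belong to membranes and traffic. The remaining named genes are neural or developmental, nuclear, or olfactory receptors, among others.

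By the scan date in their headers the arrays fell into 2 sets, taken here as 2 slides. All results at 24 h have to be read with that in view. Slide 1 held the SHAM arrays, those of 5 min and replicates 1 and 2 of 3 h, while slide 2 carried replicate 3 of 3 h and the 24 h arrays. The median raw intensity of the negative control spots was 25.0 to 27.0 on slide 1 and 83.5 to 101 on slide 2, and the lowest raw mean among the 50 probes moved with it, from 24.9 to 29.7 on slide 1 and from 86.9 to 108 on slide 2. SHAM and 24 h share no slide.

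Between 34 and 43 of the 50 probes were well above background on an array, taken as more than 5 of the 10 spots marked so by the scanner software. The 5 min arrays had the fewest, with 35, 34 and 35, against 41, 42 and 42 in SHAM. The 3 h arrays had 40, 40 and 38, and the 24 h arrays 43, 41 and 40. On all 12 arrays 31 probes were well above background. Kcnn2 (a calcium-activated potassium channel), Cav2, AK053689 and Trp53rka (a kinase that acts on p53) were so on none. No spot of the 50 probes was saturated.

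The 10 spots of a probe agreed closely where the signal was high. The measure is the SD of the log2 normalized intensities of the spots on an array, with spots that the scanner software marked as outliers left out. Its median over the 50 probes was 0.0876, 0.0830 and 0.0938 on the SHAM arrays. The 5 min arrays had 0.162, 0.101 and 0.0996. The 3 h arrays had 0.0837, 0.0822 and 0.164, and those of 24 h had 0.113, 0.207 and 0.198. The high values thus lie on slide 2 and on replicate 1 of 5 min. On raw intensities, before background correction, the median CV of the 10 spots was 4.43 to 5.60% on slide 1 and 4.92 to 5.98% on slide 2. The slides lay closer together on that scale. The CV keeps outlier spots, and raw means on slide 2 include its higher negative control level, so the 2 measures are not directly comparable.

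The spread grew as the level fell. At normalized levels above 7 (log2), the median spot SD was 0.0422 on slide 1 and 0.0830 on slide 2. Between 5 and 7 it was 0.0932 and 0.191, and below 5 it was 0.260 and 0.320. Over the 12 arrays, the probes with the smallest median SD were those of Gamt (0.0334), Prdx2 (0.0389) and XM_006525458 (0.0391), each of them well above background on all arrays. The largest median SDs belonged to Kcnn2 (0.666), Cav2 (0.596) and AK053689 (0.552), all among the probes that never rose well above background.

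Of the 6000 spot readings of the 50 probes, 256 (4.27%) were marked as outliers, 13 to 22 on each array of slide 1 and 23 to 29 on each array of slide 2. Every probe lost between 1 and 11 readings over the 12 arrays, with a median of 5, and at least 6 spots always remained in the mean of a probe. X89687 lost the most, 11, followed by Gsdmd with 10. With all 10 spots kept, the median spot SD of an array was 0.0947 to 0.182 on slide 1 and 0.162 to 0.286 on slide 2.

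The deviations of single spots from the median of the 10 spots of their probe recurred from array to array. Outlier spots were kept for this. Over the 310 spots of the 31 probes that were well above background on every array, the deviations of pairs of arrays on slide 1 had a median Pearson r of 0.29 (range 0.11 to 0.50, 28 pairs). Pairs on slide 2 had a median r of 0.20 (0.09 to 0.65, 6 pairs), and pairs across the slides 0.14 (-0.02 to 0.36, 32 pairs). The points of each pair share their place on the printed layout. The 33 of these spots that lie in the first 10 columns of the layout read lower than the other 277 on all 12 arrays, by differences from -0.02 (replicate 2 of 3 h) to -0.23 (replicate 3 of 3 h) in the mean log2 deviation.

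Replicate arrays of a group differed more than the spots of a probe did. For a probe to be tested, its mean on every array had to reach 1.1 times the intensity that marks the 95th percentile among negative control spots, and 35 of the 50 probes passed. In those 35, the SD between the 3 replicate arrays, pooled over the groups, had a median of 0.391 (log2) and ran from 0.163 for Acaa2 to 0.909 for Lhx1, a LIM homeodomain transcription factor. The median spot SD of the same probes was 0.0824, and the median SE of a mean of spots 0.0261. The replicate SD exceeded the spot SD in 35 of 35 probes, by a median ratio of 5.38 (1.21 to 22.5). The 3 h group, which is part of the pool, spans both slides, so the replicate SD includes any difference between slides there.

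Which of these probes changed with the time of occlusion was asked in a limma model of the 4 groups, fitted to all 10713 probes that passed the limit, 10678 of them circRNA probes. Calls were made where limma's p, adjusted by Benjamini-Hochberg in each comparison, did not exceed 0.05. At 5 min 2 of the 35 probes were called, 1 higher and 1 lower than in SHAM, where 5.3% of all probes tested were called (1.75% higher and 3.56% lower). At 3 h 4 were called, all higher, with 4.28% of all probes called and 3.46% called higher. At 24 h 15 were called, 14 higher and 1 lower, against 31.9% of all probes, of which 14.2% were higher and 17.7% lower. Scaling moved the split at 5 min, to 5 higher and 1 lower with the processed signal of the scanner software over its 75th percentile (8.62% of all probes called), 4 and 1 with cyclic loess (7.8%), and 0 and 3 without normalization between arrays (39%). With cyclic loess it was 15 higher and 3 lower at 24 h (30.9%), and 4 and 1 at 3 h (5.31%). The called A_ probes at 24 h thus lay mostly above SHAM, whereas the calls over the whole table were split between the directions.

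The same leaning showed in the fold changes without a threshold. The median log2 fold change of the 35 probes against SHAM was 0.51 at 5 min, 0.23 at 3 h and 0.43 at 24 h, and that of all probes tested was 0.10, -0.12 and -0.18. After 5 min, 12 of the 35 probes had their 3 arrays above every SHAM array, where 23.4% of all probes did so. After 3 h the number was 15 (13.8% of all probes), and after 24 h it was 16 (19.6%). The 3 arrays lay below SHAM for 2, 2 and 4 probes at these times, against 16%, 17.2% and 24.9% of all probes. The 4 probes called at 3 h were also called at 24 h, Gsdmd was called at 5 min and 24 h, no probe was called at all 3 times, and 19 of the 35 were never called.

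The largest changes belonged to 4 probes that were called at both 3 h and 24 h. In the values that follow, levels are log2 normalized intensities of replicates 1, 2 and 3 of a group in that order. The probe of ENSMUST00000062524 (A_51_P284125) read 8.01, 7.81 and 7.78 in SHAM and 9.73, 8.15 and 8.66 at 5 min. It read 11.09, 11.97 and 9.71 at 3 h and 13.78, 13.94 and 12.19 at 24 h. All arrays of 3 h and 24 h lay above all SHAM arrays, and replicate 3 was the lowest of its group at both of these times. In raw intensity, the mean of its 10 spots was 228 to 308 in SHAM and 22813, 18212 and 4622 on the 24 h arrays. Against SHAM the log2 fold change was 3.06 ± 0.59 (SE) at 3 h (adjusted p = 0.0112, limma) and 5.44 ± 0.59 at 24 h (adjusted p = 7.1e-05, limma).

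Tm9sf1 (A_51_P455410, NM_028780), a member of the transmembrane 9 family, read 9.18, 8.36 and 7.80 in SHAM and 9.61, 9.59 and 9.54 at 5 min. The levels were 10.26, 10.82 and 10.32 at 3 h and 12.00, 11.85 and 11.05 at 24 h. The 3 SHAM arrays were themselves spread over more than a log2 unit, yet each later group lay above all of them. The change was 2.02 ± 0.38 at 3 h (adjusted p = 0.0096, limma) and 3.19 ± 0.38 at 24 h (adjusted p = 1.0e-04, limma). At 5 min it was 1.14 ± 0.38 and missed the threshold (adjusted p = 0.0853, limma).

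Duox1 (A_51_P475138, NM_001099297) read 9.14, 8.80 and 8.80 in SHAM and 10.26, 8.83 and 9.26 at 5 min, where the groups overlapped. At 3 h the levels were 11.51, 11.91 and 9.80 and at 24 h 12.13, 11.57 and 10.80, all above SHAM. Replicate 3 of 3 h, the one array of that group on slide 2, was clearly lower than the other two. The change was 2.16 ± 0.54 at 3 h (adjusted p = 0.0398, limma) and 2.59 ± 0.54 at 24 h (adjusted p = 0.0032, limma).

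Olfr1307 (A_51_P362554, NM_001011787) is an olfactory receptor, one of a large family of related genes, so related transcripts may share its probe. Its levels were 7.04, 6.79 and 6.75 in SHAM and 7.74, 6.99 and 7.16 after 5 min of MCAO. At 3 h the arrays read 8.19, 8.48 and 7.69, and at 24 h they read 10.68, 10.12 and 10.01. The 24 h arrays stood more than a log2 unit above every other array. The change was 1.26 ± 0.32 at 3 h (adjusted p = 0.0433, limma) and 3.41 ± 0.32 at 24 h (adjusted p = 5.7e-05, limma). The other olfactory receptor, Olfr166, was at 12.18, 11.72 and 11.45 in SHAM and 11.43, 11.17 and 10.80 at 24 h, and its change of -0.65 ± 0.39 was not called (adjusted p = 0.227, limma).

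These 4 probes could be followed within slides. On the 8 arrays of slide 1 alone, the change at 3 h was 3.67 for ENSMUST00000062524 (adjusted p = 0.006, limma), 2.79 for Duox1 (0.006), 2.09 for Tm9sf1 (0.0112) and 1.47 for Olfr1307 (0.0115), all 4 still called, and Hspb7 joined them. With slide 1 alone 8.94% of all probes were called. On slide 2 the mean of the 24 h arrays lay above the one 3 h array by 3.59 for ENSMUST00000062524, 2.58 for Olfr1307, 1.70 for Duox1 and 1.31 for Tm9sf1, without a replicate of 3 h there. Over the other A_ probes this difference ran from -0.99 (Nup50) to 1.73 (Atg3), and over all probes it was not counted. That 3 h array was the lowest of its group for ENSMUST00000062524, Olfr1307 and Duox1. The 4 probes were picked by calls that used the same 24 h values, so these differences are no separate support. Leaving out replicate 2 of SHAM or replicate 2 of 3 h ended the 3 h calls of ENSMUST00000062524 (adjusted p = 0.058 and 0.073, limma) and Tm9sf1 (0.058 and 0.067). The 3 h calls of Duox1 and Olfr1307 were lost under 14 and 15 of the 40 other settings tried, with adjusted p up to 0.201 and 0.212 (limma) without replicate 2 of 3 h. Leaving out any replicate of SHAM, replicate 3 of 5 min, replicate 1 or 2 of 3 h or replicate 2 of 24 h ended both, and for Olfr1307 so did replicate 2 of 5 min. In these fits 0.924 to 4.73% of all probes were called at 3 h, against 4.28% with all arrays.

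The 2 probes called at 5 min, where 5.3% of all probes were called, were Gsdmd (higher) and H2-Q7 (lower), 2 of the 3 tested immune genes. Gsdmd (A_51_P172231) read 6.20, 5.94 and 5.97 in SHAM and 7.71, 7.09 and 7.21 after 5 min of MCAO. It then stood at 6.32, 6.35 and 7.08 after 3 h and at 6.69, 7.75 and 7.77 after 24 h. All arrays of each MCAO group lay above SHAM. The change was 1.30 ± 0.34 at 5 min (adjusted p = 0.0475, limma) and 1.37 ± 0.34 at 24 h (adjusted p = 0.0091, limma), and at 3 h it was 0.55 ± 0.34 (adjusted p = 0.424, limma). H2-Q7 (A_51_P262079) read 8.69, 8.17 and 7.93 in SHAM and 7.40, 6.69 and 6.93 after 5 min of MCAO. Later arrays read 7.35, 7.29 and 7.33 (3 h) and 7.46, 8.01 and 8.12 (24 h). It was below all SHAM arrays at 5 min and 3 h, and the 24 h arrays overlapped with SHAM. The change was -1.26 ± 0.31 at 5 min (adjusted p = 0.0376, limma) and -0.94 ± 0.31 at 3 h (adjusted p = 0.112, limma). H2-Q7 has close relatives among the MHC class I genes, which may share its probe. Mzb1 was not called at any time, with changes of -0.14, -0.38 and -0.26.

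All SHAM and 5 min arrays lay on slide 1, and within that slide the change of Gsdmd was the same 1.30 (adjusted p = 0.0128, limma) and that of H2-Q7 the same -1.26 (adjusted p = 0.0212, limma). There 9 of the 35 probes were called, with 19.1% of all probes, and besides these 2 they were AK004226, Acaa2, Apoe, Dnajc11, E2f1, Hyal3 and Taf1a, all higher. The raw signal of the 5 min arrays was low throughout: without normalization between arrays, the median log2 change of all probes against SHAM was -0.94. In that fit 39% of all probes were called, and the value of Gsdmd was 0.28 (adjusted p = 0.556, limma). H2-Q7 changed by -2.39, in the direction of the shift of all probes, and kept its call. Both 5 min calls ended when single arrays were left out, and calls over the whole table fell as well. In the fits that ended a call, 0.00933 to 2.88% of all probes were called at 5 min, against 5.3% with all arrays. Arrays of 3 h and 24 h enter this comparison only through the variance that the groups share. Leaving out 1 array ended the call of Gsdmd for replicates 2 and 3 of SHAM, each replicate of 5 min, replicates 1 and 2 of 3 h and replicate 2 of 24 h (adjusted p = 0.0623 to 0.201, limma). It ended that of H2-Q7 for replicates 2 and 3 of SHAM and of 5 min, replicates 1 and 2 of 3 h and replicate 2 of 24 h (adjusted p = 0.055 to 0.159, limma).

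Of the 7 metabolic genes, 2 were called at 24 h, both higher, where 31.9% of all probes were called and 14.2% called higher. None of the 7 was called at 5 min or 3 h when all arrays were fitted, and Acaa2 and Apoe were called at 5 min within slide 1 (adjusted p = 0.0457 and 0.0263, limma). Gpi1 (A_51_P426886), which interconverts glucose and fructose phosphates in glycolysis, read 6.19, 5.87 and 5.64 in SHAM and 5.78, 5.64 and 5.86 after 5 min of MCAO. At 3 h the arrays read 5.83, 5.86 and 6.84, and at 24 h they read 7.60, 7.58 and 7.53. The 24 h arrays lay close together and above all others, and next to them came the 3 h array that shared their slide. The change at 24 h was 1.67 ± 0.29 (adjusted p = 0.0011, limma). With the slide as a term in the model it was 0.67 (adjusted p = 0.364, limma). Ppara read 4.18, 4.51 and 4.62 in SHAM and 5.51, 5.09 and 5.02 at 24 h, a change of 0.77 ± 0.23 (adjusted p = 0.024, limma), and replicate 3 of 3 h, on the slide of the 24 h arrays, read 5.11. Its change with the slide as a term was 0.11 (adjusted p = 0.893, limma), and leaving out replicate 1 or 2 of SHAM or replicate 1 of 24 h ended its call (adjusted p = 0.0627 to 0.0825, limma).

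The other 5 metabolic genes missed the threshold at every time when all arrays were fitted. Apoe was at 8.65, 8.15 and 7.97 in SHAM and 9.52, 9.18 and 9.33 at 5 min, without overlap, and its change of 1.08 ± 0.35 had an adjusted p of 0.0773 (limma). At 24 h it read 9.45, 8.44 and 8.17, which overlapped with SHAM. Acaa2 was the tightest of the 35 probes between replicates and stood at 5.19, 5.20 and 5.22 in SHAM and 5.67, 5.77 and 5.72 at 5 min. Its change of 0.52 ± 0.21 there had an adjusted p of 0.144 (limma). Gamt ranged from 8.12 to 10.42 within SHAM, and its difference of 1.23 ± 0.52 at 24 h was not called (adjusted p = 0.087, limma). The differences of Cpt1a and Pex11a at 24 h were 0.16 and -0.20.

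Actb (A_51_P173760, NM_007393), often used as a reference gene, was the one tested probe called lower at 24 h. It read 9.20, 9.35 and 9.36 in SHAM and 9.20, 9.19 and 9.18 after 5 min of MCAO. It then stood at 8.70, 8.50 and 9.18 after 3 h and at 7.96, 8.41 and 8.65 after 24 h. The 5 min arrays were nearly level with SHAM, and the 24 h arrays were below all of both groups. The change at 24 h was -0.97 ± 0.29 (adjusted p = 0.0213, limma). On slide 2 the 24 h mean differed by -0.84 from the one 3 h array, whose level was that of the 5 min arrays. The call ended in 7 of 39 other settings, among them the slide as a term (-1.55, adjusted p = 0.0715, limma) and no normalization between arrays (adjusted p = 0.103, limma). Leaving out replicate 2 or 3 of SHAM or replicate 1 or 2 of 24 h also ended it (adjusted p = 0.0513 to 0.0793, limma). Prdx2, the other gene of this group besides Duox1 that was tested, read 9.39, 9.80 and 9.99 in SHAM and 8.82, 9.46 and 9.60 at 24 h, a change of -0.43 ± 0.32 (adjusted p = 0.322, limma).

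At 24 h 1 of 4 tested nuclear genes, 1 of 3 neural and developmental genes and 2 of 3 traffic genes (Rab5a and Tm9sf1) were called higher. Of all probes 14.2% were called higher there, and 31.9% in either direction. E2f1, a transcription factor of the G1/S transition, read 5.34, 5.18 and 5.06 in SHAM and 6.31, 5.67 and 5.87 after 5 min of MCAO. Later arrays read 5.69, 5.88 and 5.74 (3 h) and 6.30, 6.78 and 6.55 (24 h). Every MCAO array lay above every SHAM array. The change was 1.35 ± 0.24 at 24 h (adjusted p = 0.0013, limma) and 0.76 ± 0.24 at 5 min (adjusted p = 0.0769, limma). Taf1a, a factor of RNA polymerase I, had its highest mean at 5 min, where it read 7.02, 5.57 and 6.07 against 5.10, 5.08 and 5.19 in SHAM, a change of 1.1 ± 0.32 that was not called (adjusted p = 0.0634, limma). Carhsp1 and Nup50 had differences of -0.11 and -0.70 at 24 h and were not called. Among the traffic genes, Rab5a read 4.61, 4.51 and 4.36 in SHAM and 4.84, 5.83 and 5.74 at 24 h, a change of 0.98 ± 0.25 (adjusted p = 0.0100, limma), and Anxa8 had a difference of 0.61 ± 0.34 without a call.

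Of the neural and developmental genes, 3 of 7 were tested and Chgb, a chromogranin of secretory granules, was called at 24 h. It read 4.74, 4.52 and 4.67 in SHAM and 5.77, 4.55 and 4.98 after 5 min of MCAO. At 3 h the arrays read 5.36, 5.65 and 5.09, and at 24 h they read 5.52, 5.84 and 5.44. The 3 h and 24 h arrays lay above SHAM. The change at 24 h was 0.95 ± 0.29 (adjusted p = 0.0237, limma), and the call ended without replicate 2 or 3 of SHAM or replicate 2 of 24 h (adjusted p = 0.057 to 0.087, limma). Lhx1 read 11.11, 10.40 and 9.98 in SHAM and 11.97, 10.59 and 9.41 at 24 h, a difference of 0.16 ± 0.63, and these arrays overlapped with SHAM.

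Of the remaining probes, Hyal3, Spats1, Dnajc11 and X89687 were called higher at 24 h. Hyal3, a hyaluronidase, read 4.86, 5.03 and 5.08 in SHAM and 6.00, 5.36 and 5.59 after 5 min of MCAO. It then stood at 5.52, 5.66 and 5.28 after 3 h and at 6.13, 6.45 and 6.29 after 24 h. Its change at 24 h was 1.30 ± 0.23 (adjusted p = 0.0013, limma). Spats1 changed by 1.18 ± 0.26, Dnajc11, a mitochondrial J protein, by 1.07 ± 0.23, and X89687 by 1.07 ± 0.26. In each of these the 24 h arrays were above all SHAM arrays. Hspb7, a small heat shock protein, read 7.11 and 7.60 on the 3 h arrays of slide 1 and 5.57 on that of slide 2, against 6.17, 5.88 and 5.71 in SHAM. Its change at 3 h was 0.84 ± 0.42 over all arrays (adjusted p = 0.308, limma) and 1.44 within slide 1 (adjusted p = 0.0093, limma).

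With the slide as a fixed term, where the slide effect rests on the 3 h arrays, 7 of the 15 probes called at 24 h kept their call (ENSMUST00000062524, Olfr1307, Tm9sf1, Duox1, Hyal3, Spats1 and X89687), with 7.25% of all probes called. Actb, Chgb, Dnajc11, E2f1, Gpi1, Gsdmd, Ppara and Rab5a lost it. Among those, Chgb, Dnajc11 and E2f1 had changes of 1.37, 1.15 and 1.40 there, no smaller than before, while that of Gsdmd was 0.62 (adjusted p = 0.579, limma). ENSMUST00000062524, Olfr1307, Tm9sf1, Duox1, Hyal3 and Spats1 were called at 24 h in each of the 39 other settings in which they could be tested and no minimum size of change was asked for.

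The times of occlusion were also compared with each other, which leaves SHAM out. Between 24 h and 5 min 12 of the 35 probes were called, 9 higher and 3 lower at 24 h, where 30.1% of all probes were called (11.8% higher and 18.3% lower). The split was 15 and 2 with the processed signal (29.2% of all probes called), and 22 and 0 without normalization between arrays (56.3%). The 9 were ENSMUST00000062524, Olfr1307, Tm9sf1, Duox1, Gpi1, Rab5a, Spats1, H2-Q7 and X89687, and the 3 were Olfr166, Prdx2 and Actb. Without normalization between arrays the differences of these 3 turned, to 0.47, 0.28 and 0.36. The median of all probes was 1.21 in that fit, in place of -0.12. With the slide as a term only ENSMUST00000062524, Olfr1307 and Duox1 of the 12 kept the call, with 1.88% of all probes called, and the value of Olfr166 was 0.0576. Between 24 h and 3 h 4 probes were called, all higher at 24 h, with 4.72% of all probes called and 2.49% called higher. These were Olfr1307, ENSMUST00000062524, Gpi1 and Dnajc11. With the slide as a term all 4 lost the call (adjusted p = 0.144, 0.144, 0.357 and 0.263, limma), with 0% of all probes called. Between 3 h and 5 min none was called by limma, 8 had an unadjusted p under 0.05, and 2.07% of all probes were called. On the arrays of slide 1 alone 4 were called there, with 5.68% of all probes. Duox1 (2.26), ENSMUST00000062524 (2.68) and Hspb7 (1.31) were higher after 3 h than after 5 min, and Gsdmd (-1.0) was lower.

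The 15 probes below the limit on at least 1 array were left out of these counts, and are described from a fit without the limit. They are Kcnn2, Cav2, AK053689, Bambi, Trp53rka, Atg3, Mbp, Il2, Lhfp, Uhrf1bp1l, Tyr, Gsta4, Cep41, Rps4l and Gabrg1. In that fit 27.8% of all probes were called at 24 h against SHAM. Kcnn2 (1.18, adjusted p = 0.0200, limma) and Cav2 (1.05, adjusted p = 0.0317, limma) were among those called there. Neither was well above background on any array, so a call in this fit can rest on signal at background level. Gabrg1, a subunit of the GABA-A receptor, read 5.68, 5.86 and 5.98 in SHAM and 7.93, 5.99 and 6.85 at 5 min, and then 4.58, 4.69 and 4.21 at 3 h and 4.32, 4.06 and 3.91 at 24 h. All arrays of 3 h and 24 h lay below all those of SHAM and 5 min. It was well above background on 2 of the 3 h arrays and on 1 of the 24 h arrays, so the low values are imprecise. Its change was 1.08 ± 0.39 at 5 min (adjusted p = 0.13, limma), -1.35 ± 0.39 at 3 h (adjusted p = 0.0966, limma) and -1.74 ± 0.39 at 24 h (adjusted p = 0.0064, limma). Within slide 1, the difference of 3 h from 5 min was -2.29 ± 0.44 (adjusted p = 0.0314, limma).

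Il2 was well above background on no array of SHAM and on all 3 of 24 h, where it read 5.32, 5.73 and 5.55. Replicate 3 of 3 h, the other array of slide 2, was well above background too, at 4.62. No array of slide 1 was, so detection of Il2 split by slide, and the cause of this split was not tested. On slide 2 the 24 h mean lay 0.91 above the one 3 h array. At 24 h Il2 measured 2.65-fold higher than in SHAM, a log2 change of 1.40 ± 0.27 (adjusted p = 0.0025, limma). Atg3, an enzyme of autophagy, measured 2.34-fold higher at 24 h, a change of 1.22 ± 0.38 (adjusted p = 0.0303, limma). Neither was well above background on any SHAM array, so both estimates are imprecise. For Rps4l and Gsta4 a bound is given. It compares the bright group with the higher of the measured level and the lowest level well above background on each array. The bound leaves out the spread between arrays. Rps4l, related to ribosomal protein S4, had 10 of 10 spots well above background on every array of slide 1 and 0 of 10 on every array of slide 2, and was at least 1.72-fold lower at 24 h (adjusted p = 0.0313, limma). On slide 2 the 24 h mean of Rps4l was 3.95 and the one 3 h array read 4.00. Within slide 1 its 3 h arrays differed from SHAM by -0.06 ± 0.22 (adjusted p = 0.905, limma). The cause of the difference at 24 h was not tested. Gsta4 was well above background in all 3 SHAM arrays and in none at 5 min or 3 h. By the same bound it was at least 1.72-fold lower at 3 h, a difference that was not called (adjusted p = 0.195, limma).

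Mbp, the one cell type marker among the 50 genes, was well above background only on replicate 3 of 3 h, at 5.29, and on replicate 1 of 24 h, at 5.75. The other 10 arrays read 3.44 to 4.38. Both high arrays lay on slide 2, and the other two arrays of 24 h, at 4.20 and 4.38, were not well above background. The groups overlapped in this probe.

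A single spot in place of the mean of 10 gave similar numbers of calls. Across 10 fits, each with 1 of the spots, 1 to 3 of the A_ probes were called at 5 min, 2 to 4 at 3 h and 12 to 16 at 24 h, and 11 to 14 of those at 24 h were also called with the mean. Between 0 and 2 probes were called at 24 h with a single spot and not with the mean. In these fits 5.25 to 5.32% of all probes were called at 5 min, 4.25 to 4.28% at 3 h and 31.8 to 31.9% at 24 h.

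For the probe with the smallest adjusted p in each comparison, the circRNA probes with the most similar course over the 12 arrays are given as a description, since arrays of a group and of a slide share their level. H2-Q7 was closest to ASCRP4007857 (Pearson r = 0.97), ASCRP4007249 (0.96) and ASCRP4004867 (0.95). Tm9sf1 was closest to ASCRP4000192, ASCRP4011902 and ASCRP4010726, each with r = 0.99, and Olfr1307 to ASCRP4011493, ASCRP4002047 and ASCRP4007527, each with r = 0.99.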

How the data were processed

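For each array the authors deposited the scanner output of Agilent Feature Extraction 11.0.1.1 (per the labels), which holds the intensity of single spots on a linear scale as pixel medians of spot and local background. The deposited series-wide table of log2 values gives 0 of the 500 A_ spots a value and was not used here. Per the labels the authors also used limma. Before that, RNA had been depleted of rRNA, digested with RNase R and labeled with Cy3 by random priming.

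The local background was taken off the spot medians by normexp (offset 0) in limma 3.58.1 (R 4.3.3). All spots were then quantile normalized between arrays, and log2 was taken. Quantile normalization gives all arrays one distribution, so a change shared by all probes is not seen. Outlier spots were set to missing and the remaining spots of a probe averaged. Probes at or above 1.1 times the 95th percentile of 77 negative controls on 12 of 12 arrays were tested. One limma model of 4 groups, with a mean-variance trend and 2-sided moderated tests, was fitted to circRNA and A_ probes together, with Benjamini-Hochberg adjustment within each comparison. Groups were taken from the sample labels. Arrays with the same scan date in their headers were taken as 1 slide, and no slide identifier was read. With 3 arrays in a group, their number limits the precision. The procedure was also tested on simulated data.

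Symbols come from the RefSeq gene table of GRCm38.p6, matched on accession without version. The array headers name another build (mm9), so no genome positions are given. The array output gives names, not probe sequences, and no sequence is printed. Probes named with values were, in every comparison with SHAM, the 5 probes called higher and the 5 called lower by the largest amount (all where there were fewer), the 3 probes with the largest and the 3 with the smallest spot SD, the probes below the limit and the 3 probes most similar to the top one; the rest are named as examples of their group, chosen after their values were seen. The A_ probes, the groups of roles and the marker lists were chosen with earlier results of these data known. Alternatives were other background corrections, normalizations and probe limits, the median of the spots, single spots (spots 2 to 10 and the fit within slide 1 without the limit were added after seeing the data), outlier spots kept, other variance settings, fits of 2 groups, the slide as a fixed term (an added term in the model) or a random block (statmod 1.5.0), slide 1 alone, a replicate block and each array left out. Some results are not reported here.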

Additional observations from a re-analysis of the deposited data

Results flagged for a closer look

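Some probes differed between the times of MCAO, so that their change against SHAM was not the same at both. The comparisons with SHAM share its arrays, and the difference between the times was tested in the same limma model. Between 24 h and 5 min the log2 differences of the called probes were 4.45 for ENSMUST00000062524, 2.97 for Olfr1307, 2.05 for Tm9sf1, 2.05 for Duox1, 1.81 for Gpi1, 0.90 for Rab5a, 0.87 for Spats1, 0.86 for H2-Q7 and 0.76 for X89687. Rab5a was not well above background on any 5 min array, so its measured 1.87-fold difference is imprecise. Lower at 24 h were Olfr166 (-1.16), Prdx2 (-1.07) and Actb (-0.85), and these 3 differences turned without normalization between arrays (0.47, 0.28 and 0.36). The median of all probes was 1.21 without that normalization and -0.12 with it. With the slide as a term Olfr166 was at 0.0576, and Prdx2 and Actb lost their calls (adjusted p = 0.449 and 0.14, limma). Prdx2 read 9.91, 10.73 and 10.44 at 5 min and 8.82, 9.46 and 9.60 at 24 h, without overlap. Between 24 h and 3 h the differences were 2.15 for Olfr1307, 2.38 for ENSMUST00000062524, 1.39 for Gpi1 and 0.90 for Dnajc11. The 24 h arrays lay on slide 2, as did 1 array of 3 h and none of 5 min. With the slide as a term 9 of the 12 calls between 24 h and 5 min were lost, among them Tm9sf1 (adjusted p = 0.113, limma), Gpi1 (0.335) and Rab5a (0.398), and so were all 4 between 24 h and 3 h. ENSMUST00000062524 and Olfr1307 kept the call between 24 h and 5 min in each of the 38 other settings, the slide term included, while H2-Q7 and X89687 lost theirs in 22 and 24. Between 24 h and 3 h Olfr1307 lost its call in 5, Gpi1 in 7 and ENSMUST00000062524 in 18 of the 38, and Dnajc11 in 26 of 36.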

How the results depend on the processing

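Called A_ probes against SHAM numbered 2, 4 and 15 (5 min, 3 h, 24 h), and 0, 12 and 4 for 3 h against 5 min, 24 h against 5 min and 24 h against 3 h. The share of all probes called was 5.3, 4.28 and 31.9% against SHAM, and 2.07, 30.1 and 4.72% between the times. Below, this share follows the counts in parentheses. It was not counted where calls also needed a minimum change. At 5 min the count was 1 without background subtraction (6.29%), with normexp offset 50 (6.29%) and without the limit (2.96%). It was also 1 with the limit on at least 3 arrays (3.08%), spots 6, 7, 8 or 9 alone (5.25 to 5.26%) and the replicate block (5.57%). Cyclic loess gave 5 (7.8%), the processed signal over its 75th percentile 6 (8.62%) and slide 1 alone 9 (19.1%). Where calls also needed 2 log2 units of change it was 0. At 3 h it was 2 without the limit (2.81%), with the limit on 3 arrays (2.84%) and with spot 10 alone (4.25%). At 24 h it was 7 with the slide as a fixed term (7.25%) and 4 where calls needed 2 units. For 3 h against 5 min it was 1 with loess (1.92%), without the limit (1%) and with the limit on 3 arrays (1.02%). With spots 2, 5 or 10 alone it was also 1 (2.08%). The slide as a fixed term gave 3 (2.4%) and slide 1 alone 4 (5.68%). Without normalization between arrays it was 24 (66.2%), and the median of all probes was then 1.29 in place of -0.11. For 24 h against 5 min it was 22 without that normalization (56.3%), where the median of all probes was 1.21 in place of -0.12. It was 5 in a fit of the 2 groups (22.1%), 3 with the slide as a fixed term (1.88%) and 6 with it as a random block (15.3%). Where calls needed 1 and 2 units it was 7 and 4. For 24 h against 3 h it was 9 with the processed signal (4.62%), and 2 with loess (3.17%), spot 9 (4.7%), spot 10 (4.7%) or 2 units needed. The slide as a random block gave 1 (1.43%). It was 0 without normalization (0.448%), in a fit of the 2 groups (0%) and with the slide as a fixed term (0%).

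With 1 array left out the counts were 0 to 6, 0 to 5, 12 to 15, 0 to 3, 4 to 15 and 0 to 9 in the order above. The share of all probes called moved as well, over 0.00933 to 13.3%, 0.924 to 6.95%, 20.4 to 35.2%, 0.0373 to 6.6%, 17.5 to 33.2% and 0.00933 to 10.2%. At 3 h the count was 0 without replicate 2 of SHAM or of 3 h, and 2 without replicate 1 or 3 of SHAM, replicate 3 of 5 min, replicate 1 of 3 h or replicate 2 of 24 h. At 5 min it was 5 without replicate 1 of SHAM and 6 without replicate 1 of 24 h, and otherwise at most 2. Without normalization the difference between 24 h and 5 min turned for Actb (0.36), Olfr166 (0.47) and Prdx2 (0.28), where the median of all probes was 1.21. With the slide as a fixed term it turned for Olfr166 (0.0576). The cause was not tested. Replicate numbers did not pair the arrays: deviations of same-numbered arrays correlated at -0.52 to 0.46 over 18 pairs, and others at -0.53 to 0.55. With the replicate block, 1, 4 and 15 probes were called against SHAM, and 0, 10 and 3 between the times. The shares of all probes were then 5.57, 4.47 and 32.4%, and 2.59, 30.9 and 4.18%.

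The spot SD depends on the scale: without background subtraction its median was 0.0434 on replicate 1 of SHAM, against 0.0876. The deposited log2 table could not be used as an alternative, since it gives these spots no value. Probes near background, below a level of 5, have the least precise values. All 24 h arrays lie on a slide without SHAM.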
